A study of Mus musculus with 41 samples.

Results

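The genes described here are 8 members of the Polycomb and acetyltransferase chromatin machinery: Ezh1, Ezh2, Eed, Suz12, Bmi1, Cbx7, Crebbp and Ep300. They were chosen by name, as every probe set annotated to 1 of these genes and to no other. This gave 23 of the 45101 probe sets on the array and 8 of the 18194 genes that had a probe set of their own. Suz12 had 6 probe sets, Ezh1 and Crebbp 4 each, Cbx7 3, Eed and Bmi1 2 each, and Ezh2 and Ep300 1 each. A probe set was tested where its signal reached the median of its array on at least 5 of the 41 arrays, and 22 of the 23 did. The exception was Eed 1453830_at, which averaged 28.4 over all arrays and reached the median on 1. Ezh1 1429629_at passed mainly through fraction F, where 4 of its 6 arrays at or above the median lay.

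The study used 41 single-colour Affymetrix arrays, each hybridised with RNA from 1 sample of sorted mouse cells, in 7 populations that follow B cell development. The common lymphoid progenitor (CLP) and Hardy fractions A and B had 7 arrays each, and fractions C, D, E and F had 5 each. Every sample came from untreated C57BL/6 mice that were wild type for Pax5, the factor of B cell commitment. In the Hardy scheme, as background, A is the pre-pro-B stage, B the pro-B stage, C the stage from late pro-B to cycling large pre-B, D the small pre-B stage, E the immature and F the mature B cell. The labels give neither the age of the mice, the tissue nor the sorting gates. Whether the arrays of a population stand for separate animals is also not stated, and the p-values therefore reflect the spread among these samples alone, which may be technical.

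Fraction A stood apart from the other populations. The summed signal of 7 NK cell marker genes was 30120 to 65530 on its arrays and at most 6574 on any other array, and all 7 markers were above the array median on each A array. The sum of 6 plasmacytoid dendritic cell markers was 13760 to 38680 in A and at most 14390 elsewhere. For 6 T cell markers it was 2790 to 8091 in A, 1723 to 7610 in the CLP and at most 1324 in the other populations. The sum of 7 B lineage markers was 2412 to 70310 in A, with a median of 7315, against 60190 to 90300 in B. It was 31890 to 43690 in the CLP, where all 7 markers were above the array median on every array. In C and D it was 41680 to 68440 and 49310 to 56660, and in E and F 28910 to 40530 and 30450 to 33220. The CLP thus held B lineage signal in the range of E. The Gapdh ratio of 3' over 5' signal, a gauge of RNA integrity that is higher in degraded RNA, was 6.40 to 33.8 in A, 4.14 to 10.8 in B and 3.56 to 7.24 elsewhere. The same ratio for actin was not raised in A or B, at 0.849 to 1.26 in A, 0.980 to 1.18 in B and 1.07 to 1.35 elsewhere. A array 4 had the highest Gapdh ratio and the lowest actin ratio, so the gauges did not go the same way. Arrays of A correlated with the rest of their population at 0.758 to 0.868 and all other arrays at 0.887 or more. The summed signal of 7 myeloid markers was 47650 to 61120 in C and 10760 to 78550 in E, which had the highest array of all. It was 16600 to 51350 in the CLP, 19340 to 54880 in A, 4152 to 18680 in B, 15280 to 20660 in D and 7649 to 15960 in F, so that the CLP and A reached into the range of C while B, D and F did not. What part these differences have in the results that involve the CLP, A, C or E was not tested. Values are also given without A arrays 4, 6 and 7, or without B arrays 1 and 4, where that matters. These arrays had the lowest correlations with their own population, 0.758 to 0.787 in A and 0.887 to 0.893 in B. Leaving them out does not remove the NK signal, which every A array held, nor the myeloid signal of C and E.

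Polycomb proteins keep genes silent through 2 complexes. In Polycomb repressive complex 2 (PRC2), Ezh2 or its paralog Ezh1 places methyl groups on histone H3, Suz12 holds the complex together and Eed binds the finished mark and stimulates the enzyme. In complex 1 (PRC1), Cbx7 is one of the CBX proteins that read that mark, and Bmi1 is a partner of the ubiquitin ligases that modify histone H2A. Crebbp (CBP) and Ep300 (p300) are paired acetyltransferases that mark active enhancers and promoters and serve as coactivators. Ezh2 is known for its high level in dividing cells and Ezh1 for persisting in resting ones, and Ezh2 is needed for early B cell development and for rearrangement of distal immunoglobulin heavy-chain genes.

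Promoter sequences from RefSeq (GRCm38.p6) are shown for Ezh2 and Suz12, the members with a match to the site of E2F, a factor of cell cycle genes, and for Ezh1 as the contrast. All 8 genes had a window of 250 bases before to 50 after the start. It was searched on both strands for the E2F site in the spellings TTTCCCGC, TTTCGCGC, TTTGCCGC and TTTGGCGC, and for CCAAT, a motif chosen after the Ezh2 sequence had been read. Of 32851 windows in the table, 2.26% held an E2F match. Each of these spellings contains the letters CG. In the 250 bases before the start, the median over all windows was 6 CG pairs and 52.4% G or C. Ezh2 had 23 and 63.6%, Suz12 37 and 73.6%, and Ezh1 14 and 55.2%. The share over all windows is thus not a rate for windows of like composition. Ezh2 had 1 match at +4 to +11, Suz12 had 1 at -219 to -212, and the other 6 members had 0. CCAAT on either strand occurred 3 times in the 250 bases before the Ezh2 start, once each for Suz12 and Cbx7, and 0 times for the other 5, while 33.8% of all windows held it and 2.79% held it at least 3 times. The windows of Crebbp (chr16:4213355-4213654) and Cbx7 (chr15:79932597-79932896) lie wholly inside the annotated spans of these minus-strand genes, which reach 4213957 and 79971143. Their counts thus describe a start within the span and not the bases before the whole gene. Since the annotated span of Ezh2 also reaches into its window, short stretches are shown for it, with the motif in capitals.
Ezh2, E2F match, chr6:47595010-47595037, minus strand: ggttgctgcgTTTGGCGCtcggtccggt
Ezh2, CCAAT match at -90 to -86, chr6:47595108-47595128, minus strand: gccctctgATTGGacgggcgc
Ezh2, CCAAT match at -64 to -60, chr6:47595082-47595102, minus strand: cgcatcctCCAATcggagagg
Suz12, 250 bases before the start, chr11:79992856-79993105, plus strand: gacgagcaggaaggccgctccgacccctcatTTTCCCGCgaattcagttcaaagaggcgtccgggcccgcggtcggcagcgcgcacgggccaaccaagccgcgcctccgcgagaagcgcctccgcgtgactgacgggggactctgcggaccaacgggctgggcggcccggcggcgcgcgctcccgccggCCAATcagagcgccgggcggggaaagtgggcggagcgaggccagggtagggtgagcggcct
Ezh1, 250 bases before the start, chr11:101226464-101226713, minus strand: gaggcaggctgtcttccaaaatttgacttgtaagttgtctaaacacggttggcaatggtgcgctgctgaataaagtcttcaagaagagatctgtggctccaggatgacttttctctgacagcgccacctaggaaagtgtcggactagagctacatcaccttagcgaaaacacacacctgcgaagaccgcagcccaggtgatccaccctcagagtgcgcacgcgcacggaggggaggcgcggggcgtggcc
The Ezh1 stretch holds neither motif. It covers only bases before the start, whereas the Ezh2 E2F match lies after the start. The Ezh2 and Suz12 stretches were shown because they hold a match, so this difference between the stretches was set by the choice. A match or its absence describes these letters only.

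Populations were compared in 1 limma fit over all 28459 tested probe sets on log2(signal + 32), a scale that understates the change of dim probe sets, and a call is a Benjamini-Hochberg adjusted p under 0.05. Over the 7 populations, 18 of the 22 member probe sets passed the moderated F-test, as did 73.8% of all tested probe sets. From CLP to A, 1 member probe set was called higher and 6 lower, with 9.40% of all probe sets called higher and 24.5% lower. From A to B, 6 were higher and 2 lower (all probe sets, 14.7% and 12.4%). From B to C, 2 were higher and 3 lower (15.8% and 6.86%). From C to D, 4 were higher and 0 lower (8.87% and 10.4%). From D to E, 0 were higher and 2 lower (3.09% and 3.32%). Between E and F no member was called by limma, where 0.207% of all probe sets were called higher and 0.130% lower; before adjustment 1 member probe set, Cbx7 1420039_s_at, had a p under 0.05, and no alternative called any. Between the ends of the series, F against CLP, 8 were higher and 2 lower (19.9% and 20.4%), and for B against CLP 4 were higher and 3 lower (6.86% and 17.2%). Some of these counts are near the background share and others are not. They were not tested against it, and several of the 22 probe sets belong to the same gene. The results below therefore rest on the size and pattern of each gene and not on how many members were called.

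The median change of all tested probe sets was -0.25 from CLP to A, -0.22 from CLP to B and 0.25 from B to C on the log2 scale, and between 0 and 0.03 in the other comparisons. Member changes in those 3 comparisons are to be read against these shifts. The share of calls that were higher turned with the scaling: from 27.7% to 58.9% for A against CLP, from 69.7% to 30.6% for C against B and from 28.5% to 67% for B against CLP when arrays were centred on their medians. With quantile normalization it was 55.7% for C against B and 41.1% for B against CLP.

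Ezh2, the main catalytic subunit of PRC2 (chr6:47530274-47595270, minus strand, probe set 1416544_at), was high in fractions B to D and low in E and F. Its signal was 4530 to 6718 in the 7 CLP arrays (median 5525) and 2488 to 4999 in the 7 A arrays (median 4111). In B it was 8199 to 11755 (median 10022). In C the 5 arrays gave 8646, 8314, 8035, 8478 and 7163. In D they gave 11166, 10246, 10275, 10039 and 9662. In E they gave 2585, 3899, 3006, 3027 and 2825, and in F 2715, 3469, 3345, 3288 and 3335. No array of B, C or D was as low as any array of the CLP, A, E or F. In order of mean level the populations ran D, B, C, CLP, A, F and E, and among neighbours in this order only C and CLP did not overlap.

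**Figure D1:**
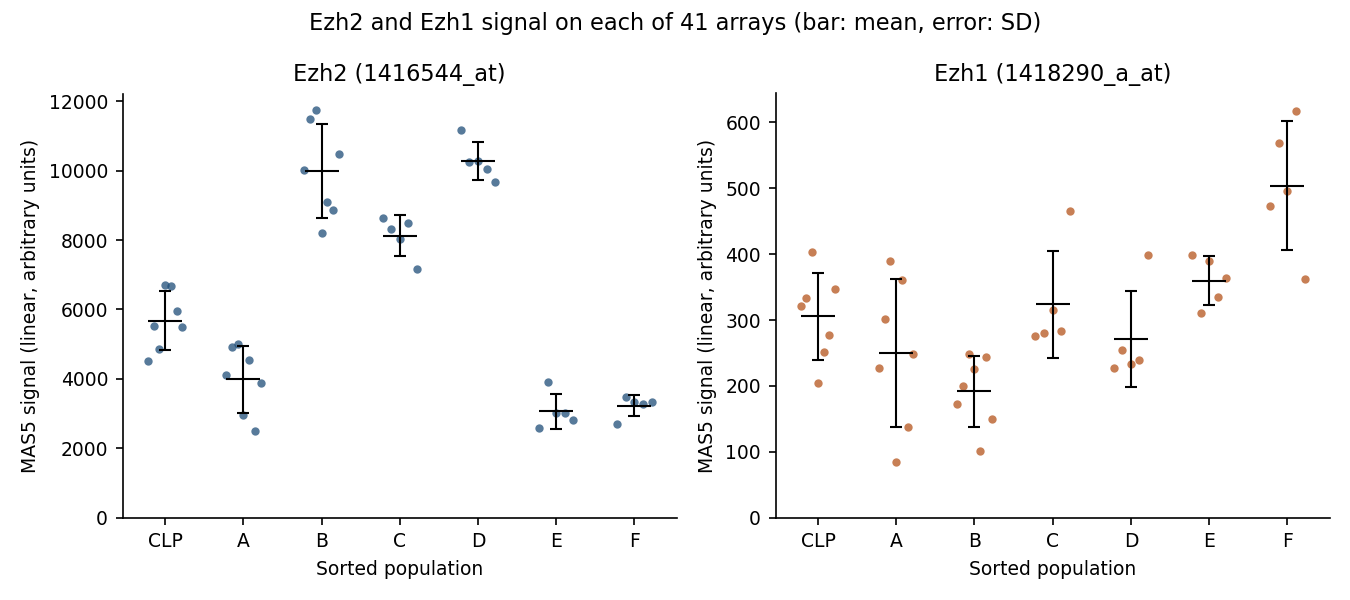
MAS5 signal of Ezh2 (left) and Ezh1 (right) on each of the 41 arrays, by sorted population in developmental order. Points are arrays, horizontal bars means and error bars SD. The D arrays of Ezh2 lie at 9662 to 11166 and the E arrays at 2585 to 3899, while the highest Ezh1 mean is in F, 504 ± 97.8 (SD, n = 5).

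The largest step of Ezh2 was the fall from D to E. The mean went from 10280 ± 554 (SD, n = 5) to 3068 ± 497 (SD, n = 5), a log2 difference of -1.75 ± 0.15 (SE), or 3.35-fold, with limma adjusted p = 4.63e-11. Ezh2 rose 2.54-fold from A to B, by 1.35 ± 0.13 (SE; limma adjusted p = 2.7e-11), without overlap between the arrays. It was also 1.76-fold higher in B than in the CLP (log2 difference 0.81, limma adjusted p = 7.56e-06) and 1.74-fold lower in F than in the CLP (-0.80, limma adjusted p = 1.51e-05), in both cases without overlap. These 4 differences were called under every alternative run for them, and only that of B against CLP moved by over 1.5 times, to 0.44 with quantile normalization.

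The smaller steps of Ezh2 were less secure. The fall from CLP to A was -0.53 (limma adjusted p = 0.00138) against a median of all probe sets of -0.25. It was -0.20 with median centring and -0.28 without A arrays 4, 6 and 7, not called in either, and not called in a fit of the 2 populations alone. From B to C the difference was -0.29 (95% interval -0.58 to -0.0006; limma adjusted p = 0.142) and -0.64, a call, with median centring. From C to D it was 0.34 (0.03 to 0.65; limma adjusted p = 0.118), although the C and D arrays did not overlap, and it was called in a fit of C and D alone and with array weights. From E to F it was 0.08 (limma adjusted p = 1), with a 95% interval of -0.23 to 0.39.

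Ezh1, the other catalytic subunit (chr11:101191115-101226463), had its lowest mean in B in each of its 4 probe sets and its highest in F in 3 of them, the exception being 1429630_at, with 205 in E and 182 in F. Probe set 1418290_a_at, the brightest of its 4, gave 204 to 404 in the CLP (median 322), 84.4 to 390 in A (median 248) and 101 to 249 in B (median 200). The C arrays gave 275, 280, 316, 284 and 466, and the D arrays 227, 255, 233, 240 and 399. The E arrays gave 398, 311, 390, 336 and 364, and the F arrays 473, 569, 496, 617 and 362. Neighbours in the order F, E, C, CLP, D, A and B overlapped throughout, so that order is not fixed by these arrays.

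The rise of Ezh1 from CLP to F was 0.67 ± 0.25 (SE) on the log2 scale, or 1.59-fold (limma adjusted p = 0.0323). It was no longer called without CLP arrays 4, 5 or 6 or F arrays 2, 3 or 4, at values of 0.59 to 0.67, nor with the replicate number as a block (0.65). For 1429630_at and 1449023_a_at the same differences were 0.05 (95% interval -0.83 to 0.94) and 0.12 (-0.59 to 0.83), not called. The dim probe set 1429629_at rose in the same comparison by 1.66 (limma adjusted p = 9.51e-06), from 13.3 to 57.6 in the CLP to 98.2 to 223 in F. The smaller pseudocount of 1 gave 2.53 there, and a constant 4 times the default gave 0.86. It fell from A to B by 0.78 (limma adjusted p = 0.0229), a call lost without A array 6, A array 7 or B array 7 (-0.70 to -0.67) and at -0.45 without A arrays 4, 6 and 7. The other 3 Ezh1 probe sets were not called from A to B. Without A arrays 4, 6 and 7, however, 2 of them were lower in B than in A, 1418290_a_at at -0.67 (limma adjusted p = 0.0168; -0.26 with all arrays) and 1449023_a_at at -1.04 (limma adjusted p = 0.00998; -0.42 with all arrays). Array weights gave -1.22 for 1449023_a_at, also a call. Ezh1 1418290_a_at fell from CLP to B (-0.61, limma adjusted p = 0.0499) and rose from B to C (0.69, limma adjusted p = 0.046), both barely inside the threshold. With median centring these were -0.26 and 0.33, and with quantile normalization -0.21 and 0.28, none of them called. Leaving out any 1 of 10 arrays ended the first call (-0.65 to -0.49) and any 1 of 9 the second (0.56 to 0.73). The arrays were each CLP array but 4 and B arrays 1, 2, 5 and 7 for the first, and the same B arrays and every C array for the second. Probe set 1449023_a_at was lower in B than in the CLP as well (-0.89, limma adjusted p = 0.0368), but it was not called with median centring (-0.54) or quantile normalization (-0.48), nor without CLP arrays 1, 3 or 7 or B arrays 2, 3 or 6 (-0.82 to -0.73).

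The contrast between the 2 enzymes was measured within each array as log2 Ezh2 (1416544_at) minus log2 Ezh1 (1418290_a_at), which removes what the array does to both genes alike. Its absolute size depends on the probes, so only changes between populations are interpreted. The mean was 4.09 ± 0.49 in the CLP and 3.91 ± 0.38 in A (SD, n = 7 each). It was 5.51 ± 0.41 in B (SD, n = 7), 4.54 ± 0.40 in C and 5.12 ± 0.36 in D (SD, n = 5 each). The lowest means were 2.98 ± 0.34 in E and 2.62 ± 0.29 in F (SD, n = 5 each). Every B array was between 5.00 and 6.10 and every F array between 2.35 and 3.10, with no overlap.

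**Figure D2:**
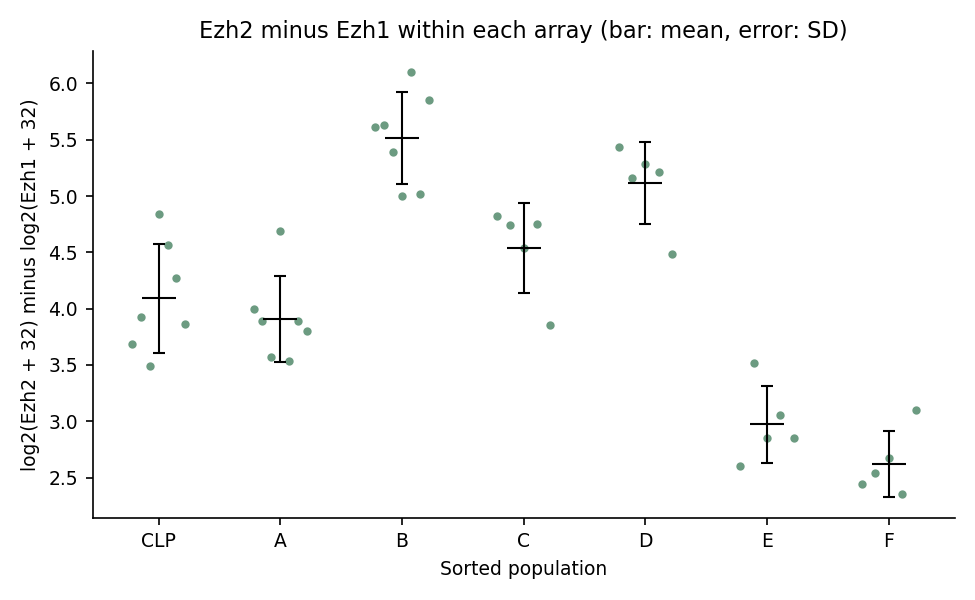
Log2(Ezh2 + 32) minus log2(Ezh1 + 32) within each of the 41 arrays, by sorted population. Points are arrays, horizontal bars means and error bars SD. The difference is highest in B (mean 5.51), and the arrays of E (2.60 to 3.52) and of D (4.49 to 5.43) do not overlap.

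Tested over arrays with two-sided exact permutation tests and adjusted over the 8 comparisons, the difference between the enzymes rose by 1.60 from A to B (adjusted p = 0.00233). It fell by 2.14 from D to E (exact permutation adjusted p = 0.0127, the unadjusted p of 0.00794 being the smallest that 5 against 5 arrays allow). F was lower than the CLP by 1.47 (exact permutation adjusted p = 0.00337), and B was higher than the CLP by 1.42 (exact permutation adjusted p = 0.00233). The size of the B against CLP difference depended on the scaling. With quantile normalization Ezh2 gave 0.44 and Ezh1 -0.21 for B against CLP, compared with 0.81 and -0.61 without it. From B to C it fell by 0.97 (exact permutation adjusted p = 0.00505), but that value was -0.05 with quantile normalization (exact permutation adjusted p = 0.833; 0.00253 to 0.0194 under the other alternatives). The steps from CLP to A (-0.18, exact permutation adjusted p = 0.453), C to D (0.58, 0.0529) and E to F (-0.35, 0.136) did not pass. The step from C to D passed without D array 5, at 0.73, and that from E to F without F array 5, at -0.47.

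Eed, the subunit that binds the methyl mark (chr7:89954654-89980976, probe set 1448653_at), did not follow Ezh2 after fraction D. Its signal was 3863 to 4698 in the CLP (median 4417), 4688 to 11991 in A (median 5593) and 6071 to 10483 in B (median 7366). The C arrays gave 4678, 4626, 3819, 4130 and 3482 and the D arrays 6318, 5653, 5672, 5424 and 6102. The E arrays gave 5800, 5449, 5610, 5715 and 5995 and the F arrays 5011, 5461, 5804, 5346 and 6097. Fraction C was as low as the CLP, and D, E and F overlapped one another. Eed was 1.79-fold higher in B than in the CLP (0.84 ± 0.14 SE, limma adjusted p = 1.22e-05) and 1.86-fold lower in C than in B (-0.89 ± 0.15 SE, limma adjusted p = 2.39e-05). Both calls held under every alternative, with quantile normalization giving 0.53 and -0.58.

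From D to E the Eed difference was -0.03 ± 0.16 (SE), with a 95% interval of -0.36 to 0.30, against -1.75 for Ezh2. The rise of Eed from CLP to A was 0.52 (limma adjusted p = 0.00314), with A array 4 highest at 11991. It was 0.26 with quantile normalization, 0.85 with median centring and 0.32 with array weights, and it was not called in a fit of the 2 populations alone. The rise from C to D was 0.50 (limma adjusted p = 0.0267) and that from CLP to F 0.37 (limma adjusted p = 0.0484), neither called with median centring or with eBayes without trend and robust. The first was also lost without C arrays 3 or 5 or D arrays 1 or 5 (0.44 to 0.48). The second was lost without any of 10 of the 12 arrays, all but CLP array 5 and F array 1 (0.33 to 0.38) and with the replicate block (0.32).

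Suz12, the scaffold of PRC2 (chr11:79993106-80034123), rose from A to B in each of its 5 bright probe sets, by 0.88 to 1.16 on the log2 scale. For 1420022_s_at, the brightest, the signal was 1750 to 5759 in A (median 5064) and 7401 to 12726 in B (median 7741), with no overlap and a rise of 0.95 ± 0.16 (SE; limma adjusted p = 1.66e-05). It was 4552 to 6003 in the CLP (median 5523). The C arrays gave 6624, 6517, 5016, 5150 and 4744 and the D arrays 7512, 6893, 6621, 5832 and 6690. The E arrays gave 5184, 5628, 5400, 4555 and 4874 and the F arrays 5573, 5240, 5303, 4983 and 5155. The highest mean of this probe set was thus in B, as for Eed and for 1420021_s_at, and E and F lay close to the CLP. In the other 3 bright probe sets the highest mean was in D. It was 5182 in D against 4816 in B for 1427253_s_at, 6528 against 4200 for 1449661_at and 2622 against 1973 for 1452364_at, with overlap of the D and B arrays in the first and the last.

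The Suz12 probe sets divided in the other comparisons. Both 1420021_s_at and 1420022_s_at were higher in B than in the CLP by 0.64 (limma adjusted p = 0.0016 and 0.00292) and fell from B to C by 0.56 and 0.57 (limma adjusted p = 0.0138 and 0.0181), while 1427253_s_at, 1449661_at and 1452364_at were called in neither. With quantile normalization these 4 values were 0.30, 0.29, -0.19 and -0.18 and none was called; with median centring they were 0.99, 0.99, -0.91 and -0.92. Median centring also called the other 3 from B to C, at -0.75, -0.64 and -0.90 (limma adjusted p = 0.0144, 0.00736 and 0.0103), and 1449661_at for B against CLP, at 0.71 (limma adjusted p = 0.00101), so the division from B to C was absent under that scaling. The fall of 1420022_s_at was also lost without B array 5, which was the highest of B, or without C array 3 or 5 (-0.53 to -0.46). From C to D, 1449661_at and 1452364_at rose by 0.94 (limma adjusted p = 0.00221) and 0.99 (limma adjusted p = 0.0244). The C arrays of 1449661_at gave 3491, 3786, 3529, 2927 and 3251 and the D arrays 7394, 6611, 6644, 6270 and 5724, with no overlap. The rise of 1452364_at was lost without C array 4 or D array 1 (0.88 and 0.90).

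From CLP to A, Suz12 1427253_s_at (-1.02, limma adjusted p = 0.00129), 1449661_at (-0.58, limma adjusted p = 0.0158) and 1452364_at (-0.97, limma adjusted p = 0.00489) fell, while 1420021_s_at and 1420022_s_at were not called. Without A arrays 4, 6 and 7 these 3 values were -0.35, -0.08 and -0.43, and the last 2 were not called; the rises of the same probe sets from A to B were then 0.49, 0.44 and 0.59, all called. The rise of 1452364_at was lost with array weights (0.60), and those of 1427253_s_at and 1452364_at in fits of A and B alone. The value of 1449661_at was -0.35 and not called without A array 4, and that of 1452364_at was -0.60 without A array 7. In fits of the 2 populations alone none of the 3 falls was called. From D to E 1420021_s_at fell by 0.57 (limma adjusted p = 0.0489), a call lost when any array but E array 5 was left out (-0.60 to -0.51) and under 5 of the other alternatives, median centring and the replicate block among them. The other 4 bright probe sets gave -0.67 to -0.38, not called in the main fit, and all 5 had no overlap between D and E. All 4 were called with array weights and in a fit of D and E alone. Probe set 1449661_at was also called with quantile normalization (-0.615) and median centring (-0.606). The dim Suz12 1420020_at, at 18.7 to 228 on all arrays, was not called in any comparison. From D to E it gave -0.90 (limma adjusted p = 0.056), called in 7 of 19 alternatives.

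**Figure D3:**
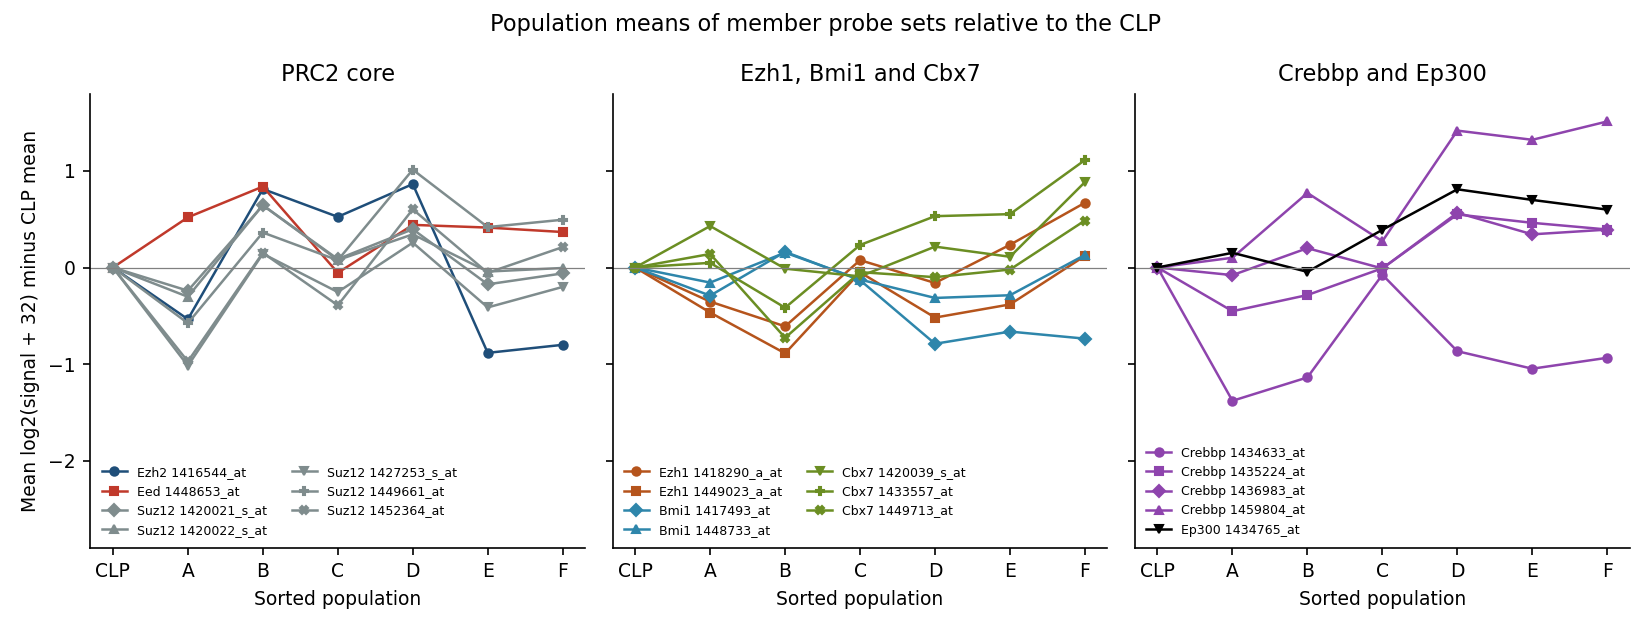
Mean log2(signal + 32) of each population minus the CLP mean, for 19 member probe sets in 3 panels, with line colours for genes and marker shapes for probe sets. The dim probe sets Ezh1 1429629_at and 1429630_at, Suz12 1420020_at and Eed 1453830_at are left out. From D to E, Ezh2 differs by -1.75 while Eed differs by -0.03, and the 4 Crebbp probe sets part in A, B and D to F.

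Bmi1, the PRC1 partner subunit (chr2:18677018-18686629), passed no comparison between populations in either probe set, although 1417493_at passed the F-test (limma adjusted p = 0.0195; 1448733_at, limma adjusted p = 0.354). Its signal for 1417493_at was 925 to 1644 in the CLP (median 1242), 576 to 1596 in A (median 1001) and 363 to 2701 in B (median 1725). The C arrays gave 1093, 1242, 1120, 1340 and 771 and the D arrays 771, 553, 784, 578 and 765. The E arrays gave 664, 979, 750, 598 and 799 and the F arrays 774, 812, 746, 543 and 704. All F arrays were below all CLP arrays, and the difference of -0.74 (95% interval -1.35 to -0.12) had a limma adjusted p of 0.0506. It was called in 9 of the 23 alternatives run, among them median centring and quantile normalization and leaving out CLP array 2 or 7 (-0.80 in both). In 1448733_at the same difference was 0.13 (limma adjusted p = 0.692).

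The B arrays of Bmi1 1417493_at spread most, and B arrays 1 and 4, at 363 and 636, were the lowest. From A to B the difference was 0.45 (limma adjusted p = 0.234). Without B array 1 it was 0.76 and without B arrays 1 and 4 it was 1.02, both called. Without B arrays 1 and 4 the difference of C from B was -0.86 (limma adjusted p = 0.00736; -0.29 with all arrays) and that of B from the CLP 0.73 (limma adjusted p = 0.0148; 0.16 with all arrays). Array weights called these 3 differences as well, at 0.73, -0.86 and 0.69.

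Cbx7, a reader of the methyl mark (chr15:79915804-79971143), was highest in F in all 3 probe sets. Probe set 1433557_at gave 72.4 to 160 in the CLP (median 113), and its F arrays gave 331, 272, 380, 205 and 299, with no overlap. The rise from CLP to F was 1.11 ± 0.33 (SE; limma adjusted p = 0.00644) for 1433557_at and 0.88 ± 0.27 (SE; limma adjusted p = 0.00796) for 1420039_s_at, and both calls held under every alternative. For 1449713_at, the brightest, it was 0.49 (95% interval -0.14 to 1.11; limma adjusted p = 0.212). No Cbx7 probe set was called from E to F, where 1420039_s_at gave 0.77 with no overlap. From A to B only 1449713_at fell (-0.87, limma adjusted p = 0.0183). That call was lost without A array 6, B array 3 or B array 5 (-0.71 to -0.64), with array weights (-0.73) and without A arrays 4, 6 and 7 (-0.52).

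Crebbp, the gene of the acetyltransferase CBP (chr16:4081334-4213957), gave opposite answers from its probe sets. In 1435224_at, the brightest, the signal was 3849 to 4967 in the CLP (median 4551), 1590 to 5152 in A (median 3952) and 2515 to 4649 in B (median 3890). The C arrays gave 3678, 3770, 4797, 5265 and 4916 and the D arrays 6237, 5832, 6969, 6579 and 7195. The E arrays gave 6309, 5797, 6238, 6702 and 5791 and the F arrays 5807, 5664, 6395, 5544 and 5975. Every array of D, E and F was above every array of the CLP, A, B and C. The difference from C to D was 0.56 (95% interval 0.14 to 0.97; limma adjusted p = 0.0514), and it was called in 8 of the 21 alternatives run, among them median centring (0.60), quantile normalization (0.55), array weights (0.54) and a fit of C and D alone. From CLP to F it was 0.39 (0.01 to 0.78; limma adjusted p = 0.0981), called with array weights and in a fit of the 2 populations alone.

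The same direction was called in 1436983_at, which rose from C to D by 0.58 ± 0.16 (SE; limma adjusted p = 0.00707) under every alternative and from CLP to F by 0.39 (limma adjusted p = 0.028). The second call was lost with the replicate block (0.35) and without CLP array 6 or F array 4 or 5 (0.36 to 0.37). In 1459804_at the rise from CLP to F was 1.51 ± 0.50 (SE; limma adjusted p = 0.0137), from 488 to 1133 in the CLP to 2466, 2219, 2545, 1916 and 2368 in F, and it was lost only with a pseudocount of 1. From C to D, 1459804_at gave 1.14 (limma adjusted p = 0.133) and 1434633_at -0.79 (limma adjusted p = 0.12), both with no overlap. Neither was called in the main fit, but both were called in a fit of C and D alone and with array weights. In 1434633_at the signal went the other way from CLP to F as well. It was 620 to 1161 in the CLP (median 800), and the F arrays gave 464, 282, 379, 619 and 374, a fall of 0.93 ± 0.33 (SE; limma adjusted p = 0.0224) with no overlap, lost without F array 2 (-0.81).

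**Figure D4:**
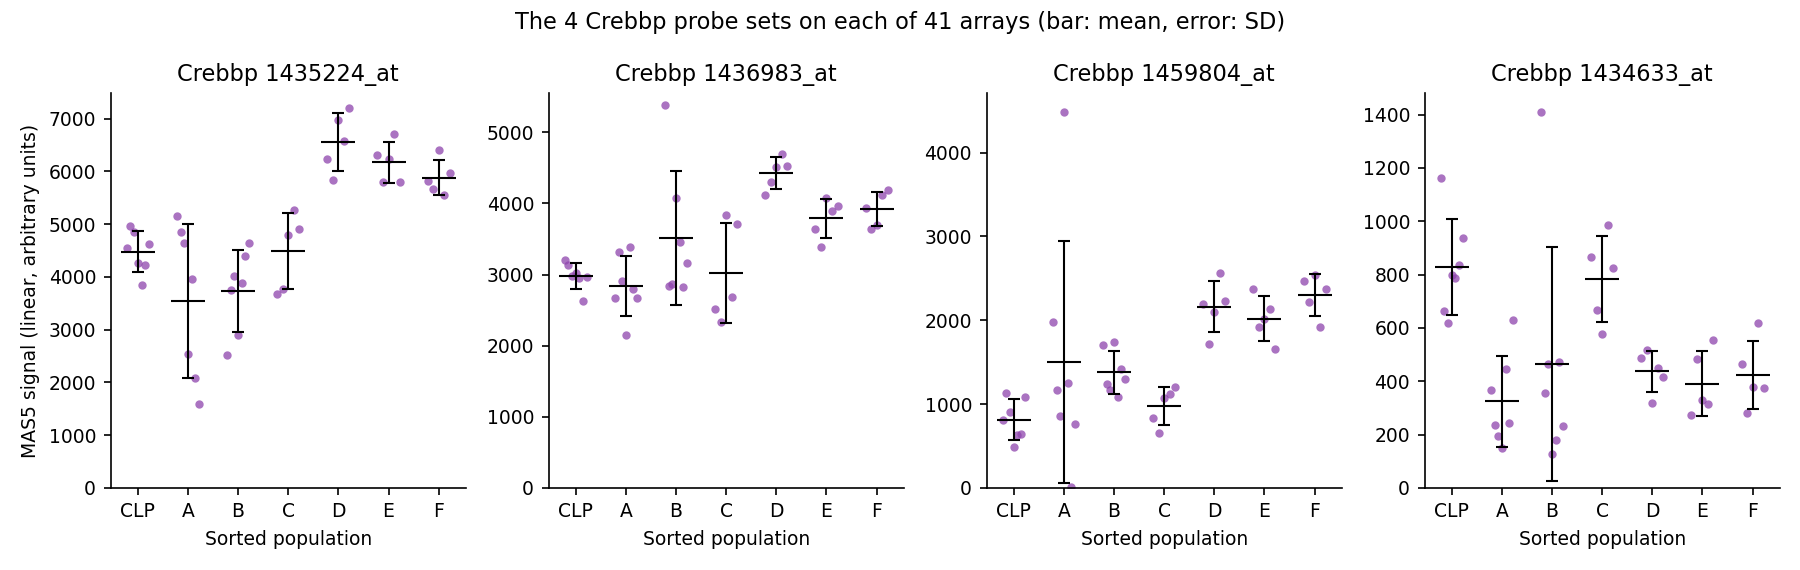
MAS5 signal of the 4 Crebbp probe sets on each of the 41 arrays, by sorted population; each panel has its own axis from 0. Points are arrays, horizontal bars means and error bars SD. The D, E and F arrays of 1435224_at lie at 5544 to 7195, above all others, while 1434633_at is highest in the CLP and C, with means of 829 and 784.

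Crebbp 1434633_at was also lower in A than in the CLP by 1.38 (limma adjusted p = 0.000489, called under every alternative) and lower in B than in the CLP by 1.14 (limma adjusted p = 0.00474, at -0.79 not called with median centring). From B to C it rose by 1.06 (limma adjusted p = 0.0176). That call was lost with median centring (0.71) and quantile normalization (0.79), in a fit of the 2 populations alone and without B array 4 or C array 4 (0.85 and 0.98). The myeloid marker sum was higher in C than in B, as given above, and its part in this rise was not tested. Probe set 1435224_at fell from CLP to A (-0.45, limma adjusted p = 0.0409). The value was 0.05 without A arrays 4, 6 and 7 and -0.12 with median centring, it was not called with array weights, and leaving out A array 4, 6 or 7 or CLP array 1, 2, 3, 4 or 7 ended the call (-0.46 to -0.28). The annotation does not say which transcripts each probe set detects.

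Ep300, the gene of the paired acetyltransferase p300 (chr15:81586209-81652077, probe set 1434765_at), was 1.51-fold higher in F than in the CLP. Its signal was 687 to 876 in the CLP (median 768), 411 to 1223 in A (median 914) and 474 to 1054 in B (median 748). The C arrays gave 698, 884, 1477, 1108 and 1083 and the D arrays 1382, 1431, 1635, 1418 and 1066. The E arrays gave 1146, 1167, 1408, 1187 and 1478 and the F arrays 1412, 854, 1455, 1216 and 1084. Fraction D had the highest mean, 1386 ± 205 (SD, n = 5), and each step between neighbouring populations was within the overlap of the arrays. The rise from CLP to F was 0.60 ± 0.21 (SE; limma adjusted p = 0.0196) and was lost without F array 1 or 3 (0.53 and 0.54) and with the replicate block (0.51).

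Genes of cell division changed in the direction of Ezh2 from A to B and from D to E, but the lists and Ezh2 differed in C and in the CLP. As the mean log2 level of 24 tested S phase genes, the list stood at 11.80 in B, 11.35 in C and 11.39 in D, and at 10.41 in E and 10.51 in F. The 21 tested genes of G2 and mitosis stood at 11.75 in B and, lower, at 11.06 in C and 11.29 in D, and fractions E and F were at 9.62 and 9.997. From D to E, 15 of the 24 S phase genes fell and 0 rose, with a median of -1, and 18 of the 21 mitotic genes fell and 0 rose, with a median of -1.73, against 0.02 for all tested probe sets. From A to B, 16 of 24 and 18 of 21 rose and 0 fell, with medians of 0.87 and 1.08. Among all tested probe sets, 3.09% were called higher and 3.32% lower from D to E, and 14.7% and 12.4% from A to B. The list counts here and below were not tested against such shares, which are over probe sets and not genes. In both steps Ezh2, at -1.75 and 1.35, was at or beyond the median of these lists. In bulk samples a smaller share of dividing cells and less RNA per cell cannot be told apart.

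From B to C, 11 of the 24 S phase genes fell and 1 rose, with a median of -0.57, and 10 of the 21 mitotic genes fell and 0 rose, with a median of -0.58, against 0.25 for all tested probe sets. Ezh2, at -0.29, was not called in that step. Of all tested probe sets, 15.8% were called higher and 6.86% lower from B to C, and 8.87% and 10.4% from C to D. From C to D, 3 of the 24 S phase genes rose and 2 fell, with a median of 0.075. In the same step 5 of the 21 mitotic genes rose and 0 fell, with a median of 0.30. The means of both lists were thus no lower in D, the small pre-B stage, than in C. The mitotic list spread widely in C, at 11.90, 11.92, 10.82, 10.23 and 10.45 on the 5 arrays, and its mean of 11.06 ± 0.80 (SD, n = 5) was below the 11.20 ± 0.41 (SD, n = 7) of the CLP. On C arrays 3, 4 and 5, which were low for this list, Ezh2 was 8035, 8478 and 7163, above every CLP array.

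In the CLP the order differed. The S phase list was 11.50 in the CLP, above the 11.39 of D, while Ezh2 was 5681 ± 838 (SD, n = 7) in the CLP and 10280 ± 554 (SD, n = 5) in D, with no overlap. This comparison and that of the C arrays with the CLP were chosen after the values were seen and were not tested. Uhrf1, which recruits the maintenance DNA methyltransferase in S phase, fell from D to E by 1.65 (limma adjusted p = 7.52e-08), and Top2a, the topoisomerase of dividing cells, by 1.73 (limma adjusted p = 5.16e-06).

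**Figure D5:**
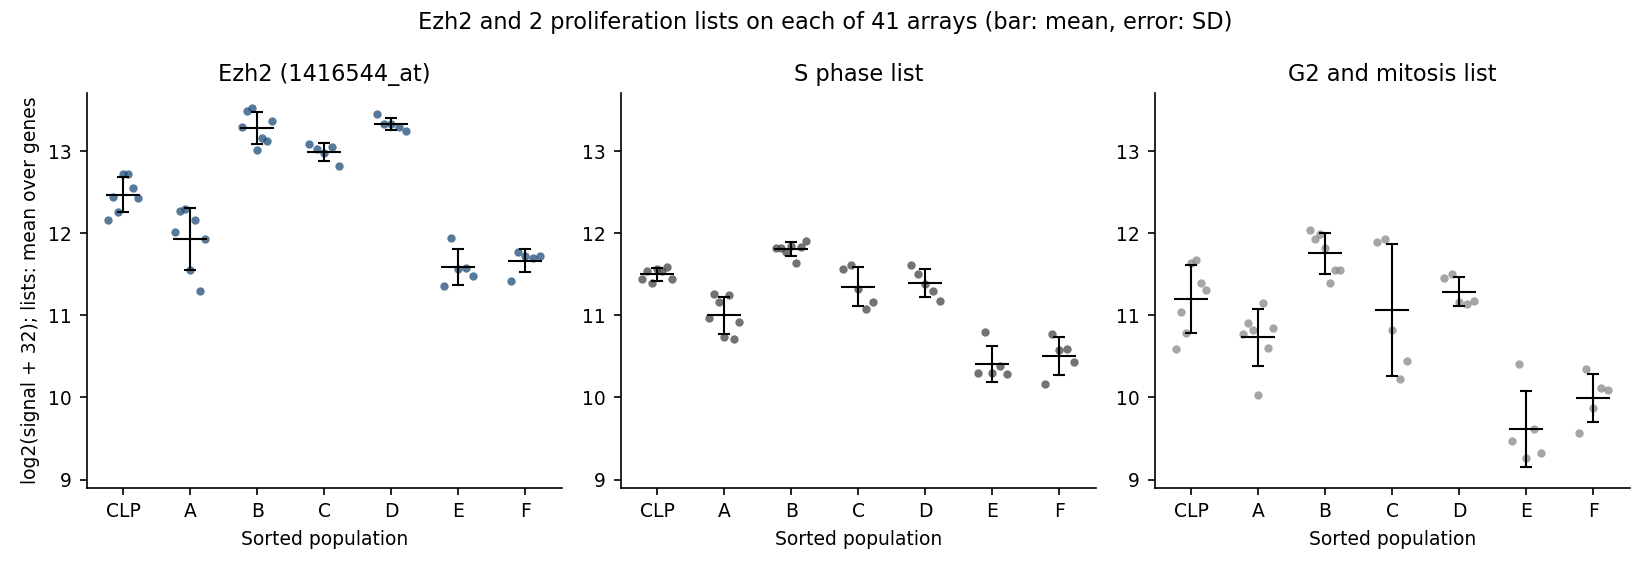
Log2(signal + 32) of Ezh2 (left), and the mean over the tested genes of the S phase (24 genes, middle) and G2 and mitosis (21 genes, right) lists, on each of the 41 arrays by sorted population. Points are arrays, horizontal bars means and error bars SD, and the axis does not start at 0. All 3 are low in E and F, and the CLP lies above D for the S phase list (11.50 and 11.39) but below D for Ezh2.

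The remaining PRC2 partners did not share 1 pattern. Of 7 accessory genes, 2 rose and 2 fell from CLP to A, and 0 fell and 1 rose from D to E, with a median of -0.16. The shares of all probe sets called higher and lower were 9.40% and 24.5% from CLP to A and 3.09% and 3.32% from D to E. Rbbp4, the histone-binding subunit that also serves other complexes, was higher in B than in the CLP by 0.92 (limma adjusted p = 1.79e-05) and fell from B to C by 1.02 (limma adjusted p = 1.77e-05), which were also calls for Eed. Rbbp7, its paralog, gave 0.43 (limma adjusted p = 0.00968) and -0.66 (limma adjusted p = 0.000413). Aebp2, a cofactor that stimulates PRC2, fell from C to D by 1.04 (limma adjusted p = 4.81e-05).

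Of 14 tested PRC1 genes, 3 rose and 1 fell from A to B, and 2 rose and 3 fell from CLP to F. Beside them, 14.7% and 12.4% of all probe sets were called higher and lower from A to B, and 19.9% and 20.4% from CLP to F. Rnf2, the ubiquitin ligase of PRC1, fell from B to C by 1.05 (limma adjusted p = 2.32e-06) and rose from C to D by 1.14 (limma adjusted p = 2.89e-06), from 1084 ± 238 (SD, n = 5) to 2386 ± 241 (SD, n = 5). Bcor, a scaffold of variant PRC1, also rose from C to D, by 0.97 (limma adjusted p = 6.81e-05), whereas Pcgf6, a Bmi1-related subunit, fell by 1.42 (limma adjusted p = 0.00151). The median of the list in that step was -0.14.

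Other CBX readers ran opposite to Cbx7 between the ends of the series. Of 3 tested, 2 fell from CLP to F and 0 rose, with a median of -1.43. Among all probe sets, 20.4% were called lower and 19.9% higher in that comparison. Cbx2 fell by 2.07 (limma adjusted p = 5.82e-08), from 560 ± 74.6 (SD, n = 7) to 114 ± 40.3 (SD, n = 5), and Cbx6 by 1.43 (limma adjusted p = 1.04e-06), while Cbx7 rose in 2 of its 3 probe sets. All 3 tested genes of the Polycomb target list fell from CLP to F. Hoxa9, a homeobox gene of early progenitors, went from 4024 ± 848 (SD, n = 7) in the CLP to 62.7 ± 25.6 in D and 28.5 ± 28.3 in F (SD, n = 5 each), a difference of -6.17 (limma adjusted p = 9.94e-13). Meis1, its cofactor, fell by 1.84 (limma adjusted p = 5e-06) and the cell cycle inhibitor Cdkn2c by 0.80 (limma adjusted p = 0.0481). Cdkn2a, Cdkn2b and Hoxa10 did not reach the level for testing.

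Among 5 tested genes of histone demethylases and of the Polycomb deubiquitinase, 2 fell from CLP to F and 0 rose. The shares over all probe sets were 20.4% lower and 19.9% higher. Asxl1, a cofactor of the deubiquitinase, fell by 1.13 (limma adjusted p = 0.000156), and Bap1, its catalytic subunit, by 0.43 (limma adjusted p = 0.0443). Bap1 rose from A to B by 1.02 (limma adjusted p = 3.32e-06). Kdm6b, a demethylase that removes the PRC2 mark, fell from B to C by 1.72 (limma adjusted p = 0.0147). Its signal spread widely, at 668 ± 371 in B (SD, n = 7) and 185 ± 99.3 in C (SD, n = 5). In A it was 1362 ± 1752 (SD, n = 7).

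Of 10 other acetyltransferases, 2 rose and 3 fell from CLP to F, and 0 rose and 5 fell from CLP to A. Over all probe sets, 19.9% were called higher and 20.4% lower from CLP to F, and 9.40% and 24.5% from CLP to A. The coactivators Ncoa3 and Ncoa1 rose from CLP to F, by 1.13 (limma adjusted p = 1.78e-05) and 0.96 (limma adjusted p = 0.00113), the comparison in which Ep300 and 2 Crebbp probe sets rose. Hat1, which acetylates new histones, fell by 0.55 (limma adjusted p = 0.0152). Of 5 tested CBP and p300 partners, 0 rose and 1 fell from CLP to F. That gene was Myb, a transcription factor that binds both proteins, which went from 10640 ± 626 (SD, n = 7) in the CLP to 19450 ± 4106 in B (SD, n = 7) and 6545 ± 499 in F (SD, n = 5). Cited2, a transcriptional regulator that binds both, rose from C to D by 0.89 (limma adjusted p = 0.00441), and Crtc2, a CREB coactivator, rose from B to C by 0.73 (limma adjusted p = 0.0362). Of 4 class I histone deacetylases, which remove the acetyl marks, 1 rose and 2 fell from CLP to F: Hdac8 rose by 0.78 (limma adjusted p = 0.0447), and Hdac1 and Hdac3 fell by 1.04 and 1.09 (limma adjusted p = 2.3e-05 and 0.00134).

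The genes whose signals ran most like Ezh2 over the 41 arrays were taken among 11950 others by Pearson correlation of log2 values, as a description, since the arrays of a population share their biology and their processing. They were the monocarboxylate transporter Slc16a1 (r = 0.925), Uhrf1 (0.896), Ptgr1 (0.88), the chromatin remodelling ATPase Smarca4 (0.876) and the mitotic cyclin Ccnb2 (0.876). Their Spearman correlations were 0.813 to 0.901. Slc16a1 was 7871 ± 786 in B (SD, n = 7), 6655 ± 406 in D and 1405 ± 664 in E (SD, n = 5 each). The closest to Ezh1 were Ganc (r = 0.836), the thioredoxin inhibitor Txnip (0.82), the interleukin 4 receptor chain Il4ra (0.812), Cdyl2 (0.799) and Cdc42se2 (0.793), with Spearman correlations of 0.674 to 0.828. Il4ra was 87.0 ± 33.4 in B (SD, n = 7) and 661 ± 107 in F (SD, n = 5).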

How the data were processed

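The 41 samples were read from 1 table of intensity values deposited by the authors, named as MAS5 by the submitters' processing notes, per the labels; its version and a genome build are not given in the sources used here. Deposited intensity values averaged 499.8 to 499.9 on every array once 2% of probe sets were trimmed from either end, a scaling to 500. No further normalization was applied. Probe sets were named from GEO's platform annotation: 34958 had 1 gene, 932 several (not used), and 9160 beside the 64 controls were not listed. Gene positions and promoters are RefSeq's (GRCm38.p6); protein and probe sequences were not used here.

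Signals were taken as log2(signal + 32) and fitted with limma 3.58.1 (a moderated fit with the mean trend and robust options of eBayes; statmod 1.5.0, data.table version 1.17.8) in R 4.3.3, with 7 population means and 8 comparisons, and tested on simulated data first. The number of arrays limits the precision. Replicate numbers from the titles were not used to pair samples. Alternatives were a pseudocount of 1 or 1 that was 4 times as large, quantile normalization, centring of arrays on their median, a filter at percentile 75 or none, the replicate block, array weights, eBayes without trend and robust, 1 probe set per gene, Ezh1 as the average over its tested probe sets, fits of 2 populations, each array left out, and A arrays 4, 6 and 7 or B arrays 1 and 4 left out.

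The members, the gene lists and the arrays left out together were chosen with earlier results of these data known. Named genes were all member probe sets, up to 3 called genes per list with the largest F statistic, and the 5 genes most like Ezh2 and Ezh1. Each gene that was not a member was represented by its probe set with the highest mean over the arrays. Other probe sets of these genes were not looked at, and the alternatives were run for the members only. The lists were PRC2 accessory genes, PRC1 genes, CBX readers, demethylases and the Polycomb deubiquitinase, other acetyltransferases, CBP and p300 partners, class I deacetylases, Polycomb targets, S phase, and G2 and mitosis, beside markers of cell types. Some list genes were not analysed here.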

Additional observations from a re-analysis of the deposited data

Results flagged for a closer look

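Within each population the highest and the lowest array were compared with the others for each of the 22 tested member probe sets and for Ezh2 minus Ezh1, 161 sets in all. In 17 of them 1 array stood apart by Dixon's criterion, where chance flags about 1 in 20.

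For the PRC2 enzymes, Ezh2 was 2715 in F array 1, below 3288 to 3469 on the other F arrays. Ezh1 1418290_a_at was 466 in C array 5 (275 to 316 on the others) and 399 in D array 5 (227 to 255 on the others). Ezh2 minus Ezh1 was 4.49 in D array 5, below 5.16 to 5.43, and 4.69 in A array 4, above 3.54 to 4.00. D array 5 stood apart in both measures.

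For Suz12, B array 5 was high in both 1420021_s_at (13379, others 6197 to 8117) and 1420022_s_at (12726, others 7401 to 8066). Suz12 1420020_at was 64 in F array 1 (113 to 138 on the others) and 1427253_s_at was 4216 in F array 4 (3563 to 3717 on the others). Suz12 1452364_at was 992 in CLP array 7 (1586 to 2230 on the others) and 156 in A array 7 (570 to 1324 on the others).

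For the PRC1 genes, Bmi1 1448733_at was 1198 in A array 4 (468 to 593 on the others), Cbx7 1420039_s_at was 89.7 in D array 3 (186 to 217 on the others) and Cbx7 1433557_at was 246 in B array 4 (35.7 to 91.9 on the others). For the acetyltransferases, Crebbp 1436983_at was 2630 in CLP array 6 (2958 to 3204 on the others), Crebbp 1459804_at was 7.7 in A array 6 (760 to 4481 on the others) and Ep300 was 411 in A array 7 (798 to 1223 on the others). Of the 17 arrays, 5 were A arrays 4, 6 or 7.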

How the results depend on the processing

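Counts of member probe sets called were within 1.5 times of the reported count in 207 of 242 alternatives, and Ezh2 minus Ezh1 kept its direction in all 133, losing a call in 1 and gaining one in 4. For A against CLP (7 called), the count was 3 with 1 probe set per gene, 1 in a fit of 2 populations and 4 without A arrays 4, 6 and 7. For B against A (8), it was 3 with 1 probe set per gene and 4 in a fit of 2 populations. For C against B (5), it was 1 with quantile normalization, 8 with median centring, 13 with array weights, and 3 both with 1 probe set per gene and in a fit of 2 populations. For D against C (4), it was 14 with array weights, 2 with 1 probe set per gene and 11 in a fit of 2 populations. For E against D (2), it was 1 with a pseudocount of 1, with no filter, with the replicate block and with 1 probe set per gene, 4 with quantile normalization, and 7 with array weights and in a fit of 2 populations. For F against CLP (10), it was 6 with the replicate block and 5 with 1 probe set per gene. For B against CLP (7), it was 11 with array weights. For the F-test (18), it was 8 with 1 probe set per gene. With 1 probe set per gene only 8 members were tested; the other causes were not tested.

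Leaving out 1 array gave 6 to 7 calls for A against CLP, 7 to 9 for B against A, 3 to 5 for C against B, 2 to 4 for D against C, 1 to 2 for E against D, 0 for F against E, 7 to 11 for F against CLP, 5 to 8 for B against CLP and 17 to 20 for the F-test. Fewest calls were left for C against B without B array 5, C array 4 or C array 5 (3 each), for D against C without D array 1 (2) and for E against D without D array 1, 2, 3 or 4 or E array 2, 3 or 4 (1 each). Ezh2 minus Ezh1 then ranged from -0.31 to -0.06 for A against CLP, 1.505 to 1.73 for B against A, -1.06 to -0.80 for C against B, 0.40 to 0.73 for D against C, -2.30 to -2.05 for E against D, -0.47 to -0.22 for F against E, -1.59 to -1.35 for F against CLP and 1.32 to 1.55 for B against CLP. It also passed for D against C with the larger pseudocount (0.52) and for A against CLP with quantile normalization (-0.62), and no longer passed for C against B with quantile normalization (-0.051).

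Of 3982 values of single member probe sets, 149 lost and 124 gained a call and 2 reversed, both Crebbp 1435224_at without A arrays 4, 6 and 7: 0.053 for A against CLP and -0.34 for B against A. Over all probe sets, the number called for D against C was 5470 and was 11987 in a fit of 2 populations, and for E against D it was 1824 and 6262, whereas for A against CLP it was 9652 and 4977 and for B against A 7716 and 2459. For F against E it was 96 and 1082, and 57 to 94 when 1 array was left out. With the replicate number as a block, 7 probe sets were called for A against CLP, 8 for B against A, 4 for C against B, 4 for D against C and 6 for B against CLP. Of 111 same-numbered pairs of arrays, 7 had deviations correlated above 0.1 (median 0.012, highest 0.207), and the median of differently numbered pairs was -0.003. The labels do not say whether equal numbers share an animal or a day, and these values cannot decide it for single pairs. Signal over background limits the dim probe sets, Ezh1 1429629_at, Suz12 1420020_at and Eed 1453830_at most.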
